A study of Mus musculus with 20 samples.

Results

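Eph receptors, ephrins, Slits, Robo receptors, netrins and their receptors were followed as 1 module of 37 genes of the 37620 in the table. The members were chosen by family and by Ensembl identifier, and all 37 were found. They comprised 13 ligand genes (5 ephrin-A, 3 ephrin-B, 3 Slit and 2 netrin genes) and 24 receptor genes (9 EphA, 5 EphB, 4 Robo and 4 Unc5 genes, Dcc and Neo1). RNA was measured in cells dissociated from the dorsal root ganglia of adult mice of 6 to 8 weeks, all of them homozygous for Trpv1tm2Bbm. This allele adds PLAP and nuclear LacZ reporters at the Trpv1 locus, so that the reporter follows the Trpv1 promoter. Cells bright for a fluorescent β-galactosidase substrate (DDAOG) were sorted, and no treatment was given to either group. Lumbar (L4-5) and sacral (L6-S1) ganglia of 5 male and 5 female donors gave 20 libraries in 4 groups of sex and level. Each donor label carries a pair of animal numbers while the study's methods count 5 mice of each sex, so whether cells of 2 animals were pooled is not known.

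Axon guidance genes work as ligand and receptor pairs. Ephrins are held in the membrane of one cell and bind Eph tyrosine kinase receptors on another. Ephrin-A proteins are anchored by a lipid and ephrin-B proteins span the membrane. Slits are secreted proteins that repel growing axons through Robo receptors, and Slit signalling through Robo also drives branching of sensory axons. Netrins attract axons through Dcc and repel them through Unc5 receptors, and neogenin (Neo1) binds netrins and repulsive guidance molecules. In adult ganglia the same genes are also used by blood vessels, of which Ephb4 (veins) and Robo4 (endothelium) are known examples.

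The sorted libraries held transcripts known from neurons and transcripts known from other cells of the ganglion. Each library held 43909160 to 66411307 reads on genes, and all had the same median of 0.93 log2 RPKM (reads scaled to gene length and library size, the unit of every level given here). All 6 neuronal markers were higher in the sacral libraries, with a mean difference of -0.61 ± 0.26 (lumbar minus sacral, SD over 10 donors). Among markers of Trpv1 nociceptors, Trpv1, Scn10a and Gfra3 were also higher in the sacral libraries, while Calca (0.16) and Tac1 (-0.10) did not pass the test. Trpv1 itself had a mean level of 3.74 in lumbar and 4.70 in sacral libraries. Of 12 glial markers, 11 were higher in the lumbar libraries, their summed level was 1550 to 3190 RPKM there and 1010 to 1660 RPKM in the sacral libraries, and their mean was higher in lumbar in 10 of 10 donors. Of 8 endothelial markers, 7 were higher in lumbar (summed level 11.9 to 81.5 RPKM against 9.47 to 42.0 RPKM). Of 8 mural and fibroblast markers, 5 were higher in lumbar and 1 (Rgs5) in sacral (156 to 423 RPKM against 207 to 301 RPKM). Of 6 macrophage markers, 2 passed the filter on low values and 1 of these was higher in lumbar (1.71 to 8.55 RPKM against 1.58 to 3.27 RPKM), and Emr1 and Cx3cr1 had no read in some libraries. Of 4 markers of large myelinated neurons, 2 were higher in lumbar (18.4 to 44.9 RPKM against 18.0 to 24.4 RPKM). In such bulk libraries fewer cells of a type and less RNA per cell cannot be told apart.

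The guidance genes ranged over more than 8 log2 units. Neo1 had the highest mean over the 20 libraries (2.92 ± 0.30, SD), followed by Robo2 (2.67 ± 0.64), Slit1 (2.52 ± 0.65), Efnb2 (2.48 ± 0.29) and Efna1 (2.38 ± 0.31), and neighbours in this order differed by less than their SD. The next were Efna5 (1.83, for 1 of its 2 identifiers), Unc5b (1.27), Efnb1 (1.26) and Ephb6 (1.05). Robo3, a divergent Robo receptor, was the lowest at -5.26 ± 1.12 and had a value in 7 lumbar and 4 sacral libraries. A gene was tested when its mean was above -1 in at least 1 of the 4 groups, and 26 members met this, 10 ligands and 16 receptors. Of these, 4 met it in the lumbar level alone (Ephb4, Efna2, Slit2 and Slit3). The filter favours a difference toward lumbar in such genes, so counts and medians over the tested members are a description.

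**Figure D1:**
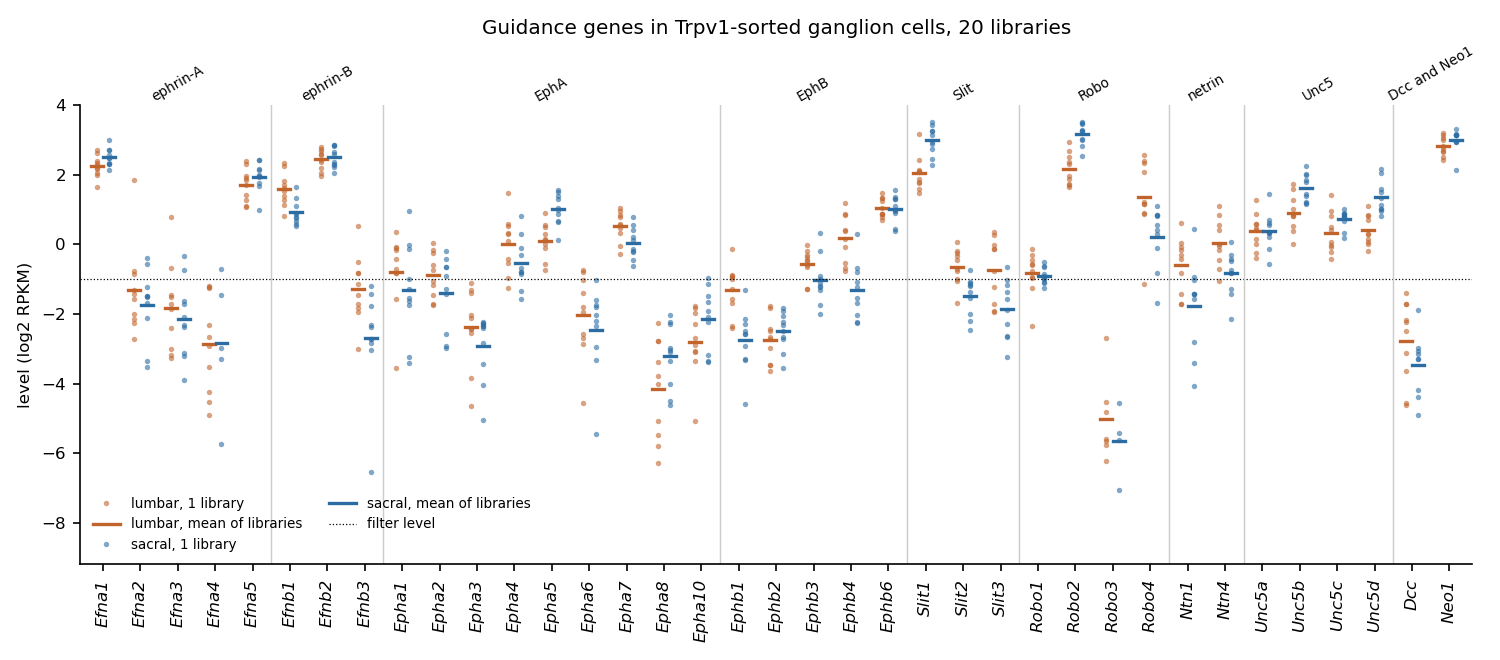
Level (log2 RPKM, vertical axis) of the 37 guidance genes, grouped by family along the horizontal axis; each point is 1 library, short bars are means of the 10 lumbar (orange) and 10 sacral (blue) libraries, and the dotted line is the filter at -1. Neo1, Robo2, Slit1, Efnb2 and Efna1 lie highest, and Slit1, Robo2, Epha5 and Unc5d have sacral means above their lumbar means while Ephb4, Slit3 and Robo4 show the opposite.

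Between lumbar and sacral levels, 12 of the 26 tested members differed at an adjusted p of at most 0.05, 5 of them higher in sacral and 7 higher in lumbar. Over all 16304 genes tested, 45.6% were called, 30.3% higher in sacral and 15.3% higher in lumbar. The share of members called (46.2%) was therefore close to that of all genes and is not a result about the module. The genes higher in sacral were Slit1, Robo2, Unc5b, Unc5d and Epha5. Those higher in lumbar were Slit2, Slit3, Robo4, Ntn1, Ntn4, Ephb4 and Efnb1. Higher in sacral were 1 of 6 called ligands (Slit1) and 4 of 6 called receptors. This split depended on the settings. A filter at 1 left 2 called ligands higher in sacral and 1 in lumbar, with 55.7% of all genes called. Scaling to neuronal markers gave 2 called receptors higher in sacral and 11 in lumbar, with 70.6% of all genes called. The median log2 fold change (lumbar minus sacral) was 0.55 over the 10 tested ligands, 0.05 over the 16 tested receptors and -0.11 over all genes. Without the 3 ligands and 1 receptor that passed the filter in lumbar alone, the medians were -0.06 and 0.03. No tested member had lumbar and sacral libraries that did not overlap, which 1.70% of all tested genes had. In 8 of 26 members all 10 donors moved the same way, compared with 19.9% of all tested genes.

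**Figure D2:**
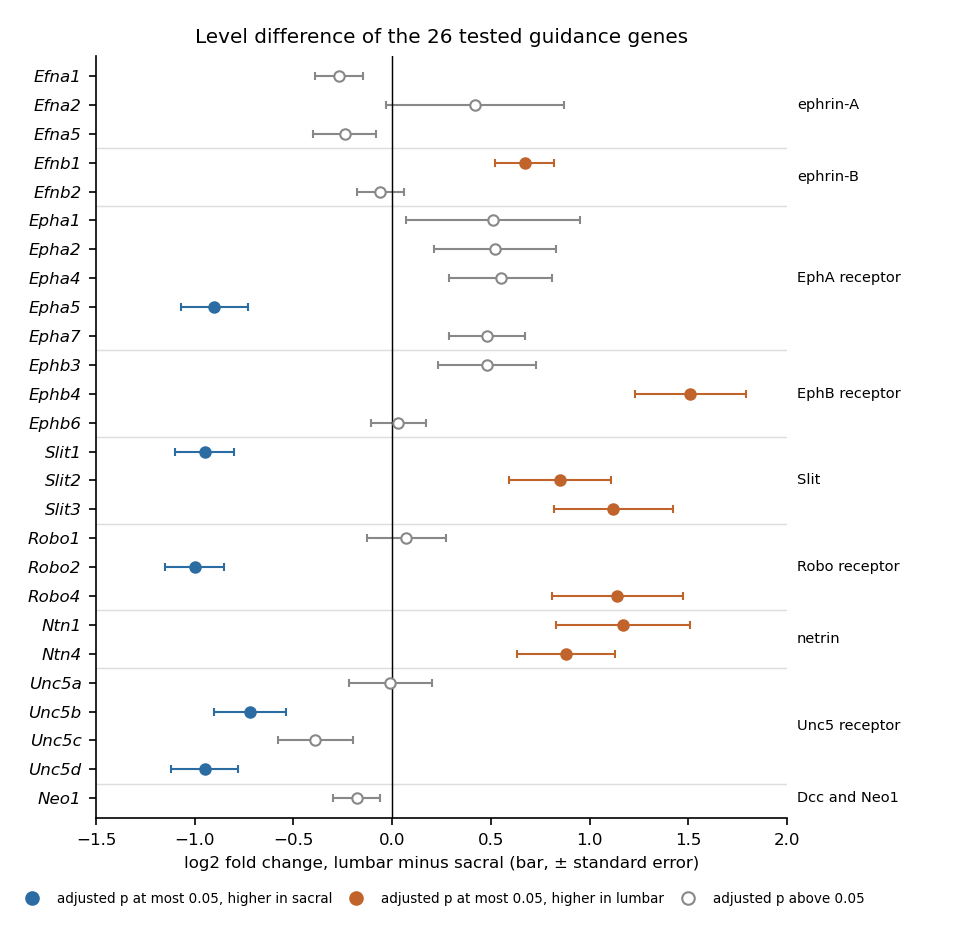
Log2 fold change between lumbar and sacral libraries (horizontal axis, lumbar minus sacral, with its standard error) of the 26 tested members, listed by family; filled points passed an adjusted p of 0.05. Slit1, Robo2, Unc5b, Unc5d and Epha5 lie left of 0 and 7 genes lie right of it, with Ephb4 farthest right at 1.51.

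The 3 Slit ligands did not move together. Slit1, the member best known from neurons (chr19:41674747-41818155, minus strand, NCBIM37), had a lowest, median and highest level of 1.46, 1.99 and 3.17 in the lumbar libraries and of 2.30, 3.04 and 3.52 in the sacral libraries. The highest lumbar value came from female donor 2, and 8 of 10 lumbar libraries lay below every sacral one. Slit1 was higher in sacral in 10 of 10 donors, by -0.95 ± 0.15 (log2 fold change ± SE, adjusted p = 6.3e-05), on 709 to 3156 reads in lumbar and 1679 to 4564 in sacral libraries. The other two Slits had higher means in lumbar, the level through which alone they passed the filter. Slit2 (chr5:48374394-48697521, plus strand) reached -1.69, -0.58 and 0.07 in lumbar and -2.46, -1.28 and -0.73 in sacral libraries. These ranges overlapped, and 8 of 10 donors were higher in lumbar (0.85 ± 0.26, adjusted p = 0.0103). For Slit3 (chr11:34934726-35522009, plus strand) the values were -1.95, -0.46 and 0.36 in lumbar and -3.23, -1.72 and -0.66 in sacral libraries. The lowest level at each site came from a female donor, and Slit3 was higher in lumbar in 10 of 10 donors (1.12 ± 0.30, adjusted p = 0.00425). Without the filter the adjusted p was 0.0124 for Slit2 and 0.0049 for Slit3. Slit2 did not pass in female donors alone (0.52, adjusted p = 0.379) or with the endothelial marker mean as a covariate (0.79, adjusted p = 0.119), nor did Slit3 with that covariate (0.51, adjusted p = 0.33), and with the glial one Slit3 was -0.20 (adjusted p = 0.91).

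Among the Robo receptors the neuronal Robo2 and the endothelial Robo4 moved in opposite directions. Robo2 (chr16:73892551-74412070, minus strand) had a lowest, median and highest level of 1.64, 2.14 and 2.93 in lumbar and of 2.54, 3.25 and 3.51 in sacral libraries. In 8 of 10 sacral libraries Robo2 was above the highest lumbar value, which again belonged to female donor 2. All 10 donors were higher in sacral, by -1.0 ± 0.15 (adjusted p = 3.1e-05), a 2.0-fold difference on 2164 to 7445 lumbar and 5541 to 12692 sacral reads. Robo4 (chr9:37209482-37221608, plus strand) ran from -1.13 through 1.20 to 2.58 in lumbar and from -1.69 through 0.49 to 1.09 in sacral libraries. Female donor 2 was the lowest at both levels, and 7 of 10 lumbar libraries exceeded every sacral one. Robo4 was higher in lumbar in 10 of 10 donors (1.14 ± 0.33, adjusted p = 0.00793), the direction of 7 of the 8 endothelial markers, but did not pass in female donors alone (0.98, adjusted p = 0.174). Its difference was -0.08 (adjusted p = 0.782) with the endothelial marker mean as a covariate and -0.55 (adjusted p = 0.71) with the glial one, 2 lists that were both higher in lumbar in 10 of 10 donors. Robo1, the close relative of Robo2, had means of -0.83 ± 0.63 and -0.90 ± 0.24 (SD, n = 10 each) and did not pass the test (0.07 ± 0.20, adjusted p = 0.805).

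Since RPKM is scaled to gene length, the members of a family were also set against each other within each library. Slit1 made up 74.3 ± 12.3% (SD, n = 10) of the summed RPKM of the 3 Slits in lumbar libraries and 91.7 ± 2.96% in sacral libraries, and its share was higher in sacral in 10 of 10 donors. Slit2 took 12.3% and 4.33%, and Slit3 took 13.3% and 3.99%. Robo2 supplied 55.9 ± 16.6% of the summed Robo RPKM in lumbar and 82.4 ± 6.11% in sacral libraries, again higher in 10 of 10 donors. The lumbar share of Robo2 was as low as 31.7% and as high as 84.6%, so that libraries at this level differed widely. Robo4 held 36.5 ± 18.0% and 12.5 ± 6.30% of the Robo sum, and Robo1 held 7.25% and 5.0%. These shares are a description of the same level values and add no separate test.

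**Figure D3:**
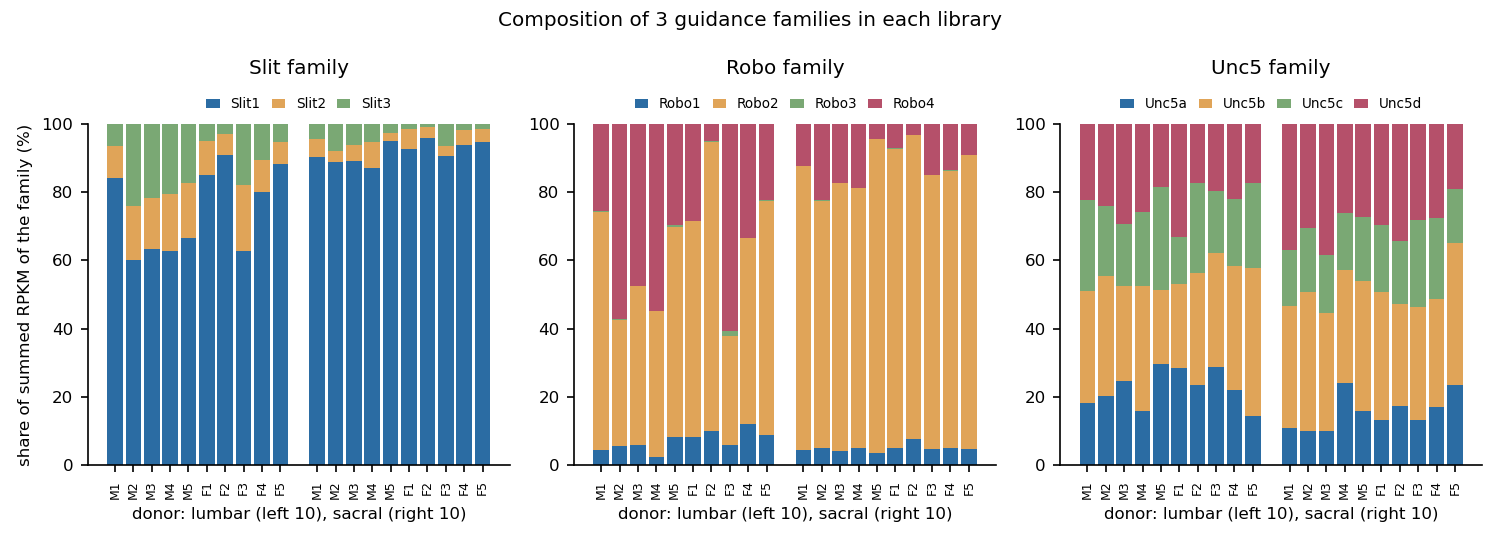
Share of the summed RPKM of the Slit, Robo and Unc5 families (vertical axis, %) taken by each member in each of 20 libraries (horizontal axis, donors M1 to M5 and F1 to F5, lumbar left and sacral right). Slit1 fills at most 90.8% of the Slit bar in lumbar and 87.1% to 95.6% in sacral libraries, and Robo2 31.7% to 84.6% and 72.1% to 91.7% of the Robo bar.

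Both netrin members, Ntn1 and Ntn4, were higher in lumbar. The other secreted netrins, in the partner list, were not called, with Ntn5 at -0.90 ± 0.64 and -1.56 ± 1.09 (SD, n = 10 each, 0.66 ± 0.36, adjusted p = 0.146) and Ntn3 below the filter and higher in sacral in 8 of 10 donors. Netrin-1 (Ntn1, chr11:68022866-68214325, minus strand), the classical attractant, had -1.71, -0.35 and 0.61 as its lowest, median and highest level in lumbar and -4.07, -1.42 and 0.45 in sacral libraries. The sacral values spread widely, from 22 to 424 reads, and male donor 3 was the 1 donor with more in sacral. The difference was 1.17 ± 0.34 (adjusted p = 0.0089, 9 of 10 donors), and 127 exon bases of Ntn1 are shared with another gene model on its strand. In sacral libraries Ntn1 met the filter at -1 only narrowly, by a mean of -0.99 in males (-2.53 in females). The filter may therefore favour its direction toward lumbar, and without the filter the adjusted p was 0.0112. Netrin-4 (Ntn4, chr10:93103426-93209952, plus strand), a netrin of basement membranes, had -1.06, -0.02 and 1.10 in lumbar and -2.14, -0.77 and 0.07 in sacral libraries. The ranges overlapped while 10 of 10 donors were higher in lumbar (0.88 ± 0.25, adjusted p = 0.00637). Ntn1 did not pass in male donors alone (0.97, adjusted p = 0.0644), nor Ntn4 in female donors alone (0.96, adjusted p = 0.101). With the endothelial marker mean as a covariate Ntn1 was 0.45 (adjusted p = 0.465) and Ntn4 0.55 (adjusted p = 0.242), and with the glial one they were 0.05 (adjusted p = 0.986) and 0.22 (adjusted p = 0.897). Ntn4 formed 60.6 ± 9.35% and 64.4 ± 12.6% of the sum of these 2 members, and 7 of 10 donors had the larger share in sacral.

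The netrin receptors gave no lumbar-higher call. Unc5d (chr8:29757189-30329810, minus strand), a repellent receptor that also binds Flrt proteins, had -0.20, 0.30 and 1.12 in lumbar and 0.83, 1.23 and 2.17 in sacral libraries. In 8 of 10 lumbar libraries it lay below every sacral one, and all 10 donors were higher in sacral by at least 0.51 (-0.95 ± 0.17, adjusted p = 0.000182). Unc5b (chr10:60225358-60294329, minus strand), which neurons and endothelium both use, had 0.03, 0.84 and 1.73 in lumbar and 1.15, 1.62 and 2.25 in sacral libraries. Female donor 2, the highest lumbar library, was the only donor of 10 with more in lumbar. Unc5b was higher in sacral by -0.72 ± 0.18 (adjusted p = 0.00288), but it did not pass in female donors alone (-0.49, adjusted p = 0.18), with the endothelial covariate (-0.59, adjusted p = 0.099) or with the glial one (-0.10, adjusted p = 0.938). Unc5c did not pass (0.34 ± 0.59 and 0.73 ± 0.27, SD, n = 10 each, difference -0.39 ± 0.19, adjusted p = 0.101), nor did Unc5a (0.38 at both levels, -0.01 ± 0.21, adjusted p = 0.981). Of the Unc5 sum, Unc5d supplied 23.0 ± 5.22% in lumbar and 29.9 ± 5.63% in sacral libraries (higher in sacral in 9 of 10 donors), and Unc5b 32.4% and 35.5% (5 of 10). Neo1 (chr9:58722486-58884248, minus strand) had 2.43, 2.79 and 3.20 in lumbar and 2.15, 3.14 and 3.31 in sacral libraries. Its groups overlapped throughout, and the difference of -0.18 ± 0.12 did not pass (adjusted p = 0.217, 8 of 10 donors higher in sacral). Without male donor 2, whose sacral library was the lowest, it was -0.29 (adjusted p = 0.0196). Dcc was below the filter, at -2.76 ± 1.17 in 10 lumbar and -3.46 ± 0.90 in 9 sacral libraries.

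**Figure D4:**
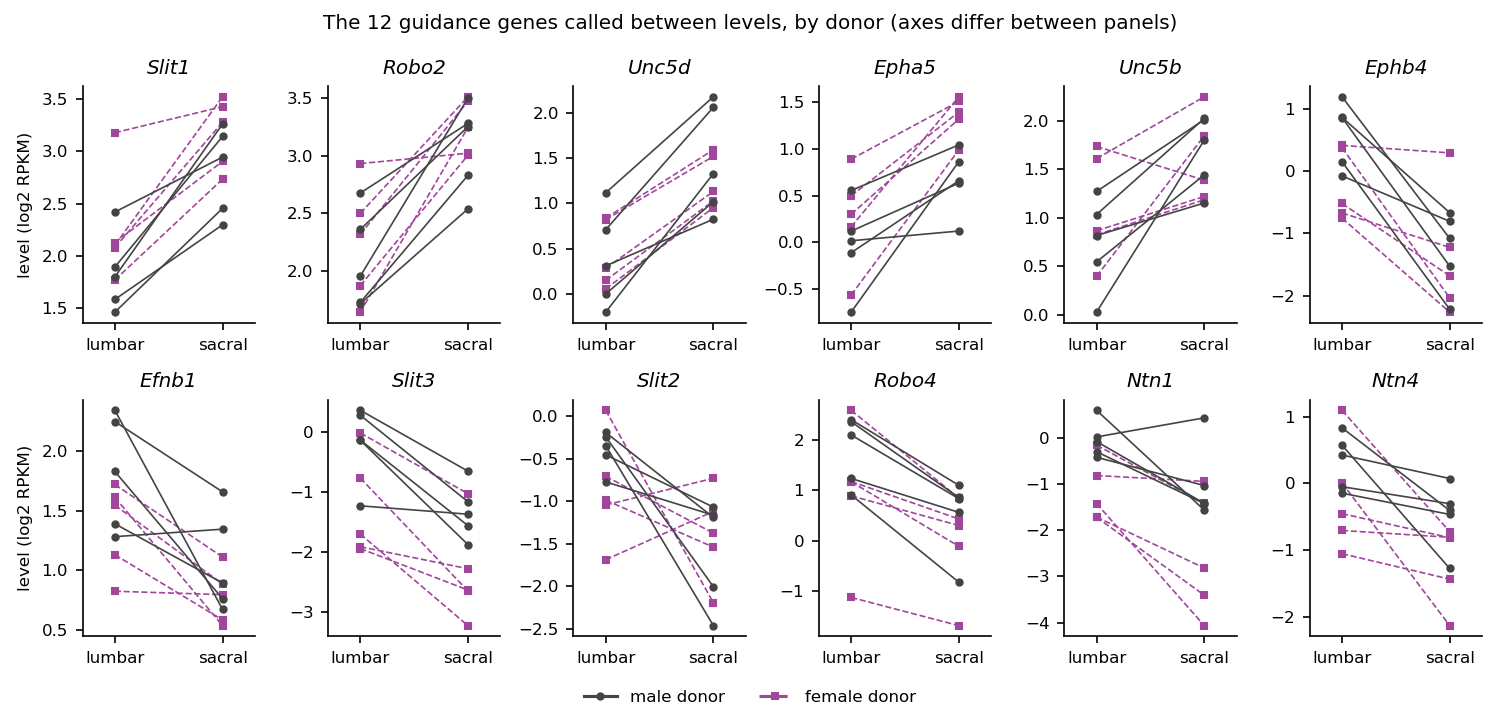
Level (log2 RPKM, vertical axis, scale differs between panels) of the 12 members called between levels, in lumbar and sacral ganglia of each donor, with lines joining the 2 libraries of 1 donor (5 male donors solid, 5 female donors dashed). The lines of Slit1, Robo2, Unc5d and Epha5 rise toward sacral in all 10 donors, and those of Ephb4, Slit3, Robo4 and Ntn4 fall in all 10.

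Of the 5 tested ephrin ligands, 1 was called between levels. Ephrin-B1 (Efnb1, chrX:96331469-96344330, plus strand) had 0.82, 1.58 and 2.34 in lumbar and 0.53, 0.84 and 1.66 in sacral libraries. The levels overlapped, and 9 of 10 donors were higher in lumbar (0.67 ± 0.15, adjusted p = 0.00152). Ephrin-B2 (Efnb2, chr8:8617434-8661239, minus strand), an arterial ephrin that is also made by neurons, had 1.96, 2.49 and 2.79 in lumbar and 2.06, 2.49 and 2.87 in sacral libraries. Its difference was within its error (-0.06 ± 0.12, adjusted p = 0.701), and the sign depended on the scaling, with 0.05 under trimmed-mean (TMM) factors. Efnb2 supplied 60.5 ± 5.91% of the ephrin-B sum in lumbar and 72.6 ± 6.66% in sacral libraries, larger in sacral in 10 of 10 donors, as Efnb1 took 34.2% and 24.7%. Ephrin-A1 (Efna1, chr3:89075655-89085064, minus strand) was the most abundant ephrin-A by single identifier, with 1.65, 2.24 and 2.71 in lumbar and 2.14, 2.49 and 3.02 in sacral libraries. It was higher in sacral in 8 of 10 donors but missed the threshold (-0.27 ± 0.12, adjusted p = 0.0652). Efna5, a repellent of many axon types, had means of 1.71 ± 0.47 and 1.95 ± 0.42 (SD, n = 10 each, -0.24 ± 0.16, adjusted p = 0.209). A second Ensembl identifier of Efna5 covers 2416 of the same exon bases. Reads may be divided between them, so the order of Efna1 and Efna5 in level is uncertain. The difference of the second identifier was similar (-0.28 ± 0.18, adjusted p = 0.216). Efna2 (-1.32 and -1.73) did not pass either, and female donor 4 had 281 lumbar reads and a level of 1.86 where the other 9 lumbar libraries reached at most -0.77.

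The EphA receptors, which bind mainly ephrin-A ligands, held 1 call. Epha5 (chr5:84486816-84846407, minus strand), a neuronal receptor, had -0.75, 0.14 and 0.89 in lumbar and 0.12, 1.02 and 1.56 in sacral libraries. In 6 of 10 sacral libraries Epha5 was above the highest lumbar value, and all 10 donors were higher in sacral (-0.90 ± 0.17, adjusted p = 0.000219). The smallest difference between the levels of a donor, -0.10, was that of male donor 2. Epha5 made up 20.0 ± 7.41% of the summed EphA RPKM in lumbar and 36.9 ± 12.4% in sacral libraries, a larger share in sacral in 10 of 10 donors. The 4 other tested EphA genes had higher means in lumbar and did not pass. Epha7 (0.53 ± 0.42 and 0.05 ± 0.45) came nearest (0.48 ± 0.19, adjusted p = 0.0502), and it passed under TMM factors (0.59, adjusted p = 0.0136) but not with donor as a fixed block (adjusted p = 0.0847). Epha4, which binds ephrins of both classes, had 0.01 ± 0.81 and -0.53 ± 0.73 (0.55 ± 0.26, adjusted p = 0.0945, 9 of 10 donors higher in lumbar). It passed with donor as a fixed block (adjusted p = 0.0324) and under TMM factors (0.66, adjusted p = 0.0473). Epha1 had -0.79 and -1.30 (adjusted p = 0.353) and Epha2 -0.88 and -1.40 (adjusted p = 0.179).

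Ephb4 had the largest absolute difference of the tested members, and it was kept by its lumbar level alone, which favours that direction. This receptor of ephrin-B2 (chr5:137791337-137819897, plus strand) had -0.75, 0.27 and 1.19 in lumbar and -2.27, -1.38 and 0.29 in sacral libraries. All 10 donors were higher in lumbar, and 8 of 10 sacral libraries lay below every lumbar one, the exceptions including female donor 4, whose sacral library was the highest. The difference was 1.51 ± 0.28 (adjusted p = 0.000223), a 2.84-fold change on 111 to 500 lumbar and 49 to 277 sacral reads. In female donors alone it was 1.15 and did not pass (adjusted p = 0.073), and in male donors alone it was 1.86 (adjusted p = 0.0027). The glial covariate also ended the call (0.74, adjusted p = 0.602). Of its exon bases, 33 overlap Zan on the opposite strand. Ephb6, a kinase-dead receptor, was the most abundant EphB gene (1.06 ± 0.27 and 1.03 ± 0.39) and did not differ beyond its error (0.03 ± 0.14, adjusted p = 0.881). It supplied 46.3 ± 8.20% of the EphB sum in lumbar and 60.4 ± 10.5% in sacral libraries, while Ephb4 supplied 25.7% and 13.5%. Ephb3 had means of -0.56 ± 0.42 and -1.03 ± 0.68 (0.48 ± 0.25, adjusted p = 0.128).

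The promoters of receptors that moved in opposite directions are printed to show the sequence in front of these genes. RefSeq promoter windows (250 bases before to 50 after the annotated start, GRCm38.p6, a build other than that of the gene positions above) were found for 32 of the 37 members, in 37 windows, and no entry was found for Slit1, Ntn1, Unc5d, Efnb3 and Dcc. Windows of 2 receptors higher in sacral (Epha5, Unc5b) and 2 higher in lumbar (Ephb4, Robo4) follow, 5′ to 3′ on the strand of the gene, with matches on either strand to a GC box (GGGCGG), an E box (CAGCTG) or a posterior Hox core (ATAAA) in capitals. They lie at chr5:84417333-84417632 (Epha5, minus strand), chr10:60831532-60831831 (Unc5b, minus strand), chr5:137349859-137350158 (Ephb4, plus strand) and chr9:37401722-37402021 (Robo4, plus strand).
Epha5: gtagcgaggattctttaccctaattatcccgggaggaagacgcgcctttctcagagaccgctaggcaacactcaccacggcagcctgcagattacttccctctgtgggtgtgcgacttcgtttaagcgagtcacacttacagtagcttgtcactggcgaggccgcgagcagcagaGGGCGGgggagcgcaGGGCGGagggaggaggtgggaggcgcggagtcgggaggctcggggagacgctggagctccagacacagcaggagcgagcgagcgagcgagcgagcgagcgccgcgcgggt
Unc5b: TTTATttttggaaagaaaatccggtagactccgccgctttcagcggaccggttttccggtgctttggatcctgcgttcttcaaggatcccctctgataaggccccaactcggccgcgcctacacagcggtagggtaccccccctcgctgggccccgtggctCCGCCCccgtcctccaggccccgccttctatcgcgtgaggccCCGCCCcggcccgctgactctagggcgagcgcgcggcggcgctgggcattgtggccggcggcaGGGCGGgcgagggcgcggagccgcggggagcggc
Ephb4: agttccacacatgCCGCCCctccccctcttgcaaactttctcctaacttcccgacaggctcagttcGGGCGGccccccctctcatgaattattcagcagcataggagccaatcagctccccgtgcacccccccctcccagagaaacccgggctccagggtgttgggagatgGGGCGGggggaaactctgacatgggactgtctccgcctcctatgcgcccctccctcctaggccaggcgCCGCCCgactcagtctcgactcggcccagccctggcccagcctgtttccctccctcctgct
Robo4: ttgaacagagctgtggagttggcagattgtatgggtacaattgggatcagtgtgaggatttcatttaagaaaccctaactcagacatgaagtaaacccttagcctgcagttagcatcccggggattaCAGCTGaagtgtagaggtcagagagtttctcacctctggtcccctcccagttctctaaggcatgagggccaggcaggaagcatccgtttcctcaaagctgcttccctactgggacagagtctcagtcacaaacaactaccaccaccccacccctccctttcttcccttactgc
The capitals mark 2 GC boxes in Epha5, 3 GC boxes and 1 Hox core in Unc5b, 4 GC boxes in Ephb4 and 1 E box in Robo4. The G and C content was 64.3% for Epha5, 69.7% for Unc5b, 64.7% for Ephb4 and 50.3% for Robo4, where the median of all 32851 windows was 52.7%. A GC box occurred in 26 of the 37 member windows and in 35.7% of all windows, an E box in 5 (16.3% of all) and a Hox core in 7 (40.0% of all). Among windows of called members, a GC box was present in 2 of 5 for genes higher in sacral and in 4 of 6 for genes higher in lumbar. The 5 sacral windows came from Robo2, Unc5b and Epha5 alone, some with more than 1 window. These are therefore counts of windows and not of genes, and they do not compare the directions. A match is a run of letters and does not show that a factor binds.

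The other 11 members, 3 ligands and 8 receptors, stayed below the filter in all 4 groups. Ephb1, a receptor of B-class ephrins, had mean levels of -1.31 ± 0.70 in lumbar and -2.75 ± 0.87 in sacral libraries (SD, n = 10 each). It was higher in lumbar in 10 of 10 donors on 48 to 279 and 16 to 167 reads. When the filter was dropped, Ephb1 differed by 1.44 ± 0.35 (adjusted p = 0.0027). Efnb3, the third B ephrin, had -1.27 ± 0.96 and -2.69 ± 1.49, was higher in lumbar in 9 of 10 donors and passed without the filter (1.42 ± 0.46, adjusted p = 0.0205). Its lowest sacral library rested on 2 reads. The remaining 9 had no call without the filter, in a fit that called 33.6% of all 22251 genes tested. Their mean levels were -2.39 and -2.92 for Epha3, -2.04 and -2.45 for Epha6, -4.17 and -3.22 for Epha8, -2.80 and -2.14 for Epha10, -2.75 and -2.49 for Ephb2, and -1.83 and -2.14 for Efna3 (lumbar, then sacral). Efna4 had a value in 10 lumbar and 5 sacral libraries (-2.88 and -2.83), and Robo3 reached at most 50 reads in a library.

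The level differences were set beside the marker lists and scalings that moved with them. Relative to the neuronal marker mean (a scaling chosen after seeing the data), Robo2 (-0.39, adjusted p = 0.000716), Slit1 (-0.34, adjusted p = 0.00693) and Unc5d (-0.34, adjusted p = 0.0471) were higher in sacral, while Epha5 (-0.29, adjusted p = 0.0591) and Unc5b (-0.11, adjusted p = 0.498) did not pass. The same scaling moved the median of all genes to 0.50 and gave 19 members higher in lumbar and 3 higher in sacral. Of all genes 70.6% were called in that fit, 11137 higher in lumbar and 371 higher in sacral. With the endothelial marker mean as a covariate, 6 of the 26 tested members were called, beside 16.5% of all genes. They were Slit1, Robo2, Unc5d, Epha5, Ephb4 and Efnb1, all among the 12. With the glial marker mean as a covariate, 0 of the 12 members passed (limma, 0 of the 12 and 1 of the 26 tested members at an unadjusted p under 0.05), and 0.926% of all genes did. The differences in that fit were 0.74 for Ephb4, 0.70 for Slit2, 0.36 for Efnb1, 0.22 for Ntn4 and 0.05 for Ntn1, and -0.47 for Unc5d, -0.32 for Robo2 and Epha5, -0.17 for Slit1 and -0.10 for Unc5b. Slit3 (-0.20) and Robo4 (-0.55) changed sign in it. Since glial and neuronal markers differed between levels in 10 of 10 donors, the part of cell composition in these differences cannot be told apart from level. All 12 kept their direction under quantile, TMM, total-read and neuronal scaling, although the share of all called genes that were higher in sacral was 66.5% as reported, 50.2% under TMM factors, 86.7% when recovered reads were scaled to their total and 3.22% under neuronal scaling.

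**Figure D5:**
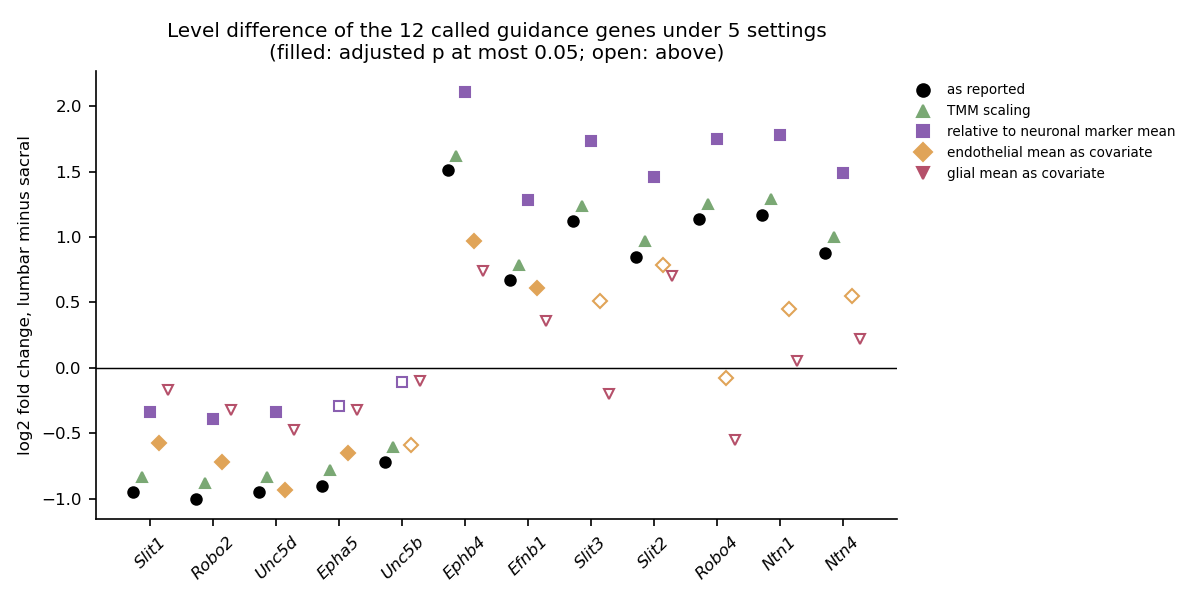
Log2 fold change (vertical axis, lumbar minus sacral) of the 12 called members (horizontal axis) as reported and under 4 other settings; filled symbols passed an adjusted p of 0.05. Robo2, Slit1 and Unc5d stay filled and below 0 relative to neuronal markers (-0.39, -0.34 and -0.34), Robo4 lies at -0.08 with the endothelial covariate, and all symbols of the glial covariate are open.

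No member was called between the sexes. Of the 26 members, 0 were called between female and male lumbar libraries (limma, 4 at an unadjusted p under 0.05, as were 11.4% of all genes, lowest adjusted p = 0.367), where 0.0427% of 16386 genes were called. In sacral libraries it was again 0 (4 at an unadjusted p under 0.05, as were 8.09% of all genes, lowest adjusted p = 0.5), against 0.0368% of 16321 genes. The sex by level term called 0 members and 0 of 16304 genes (0.00%), with 1 member and 4.1% of all genes at an unadjusted p under 0.05. Voom on recovered reads also called 0 members in each of these. Ntn1 had the lowest unadjusted p in sacral libraries, with -0.99 ± 0.83 in males and -2.53 ± 1.32 in females (SD, n = 5 each, limma across all genes, -1.53 ± 0.54, adjusted p = 0.5). Lumbar Ntn1 was -0.03 ± 0.40 in males and -1.16 ± 0.67 in females. Slit3 had the same order, at -0.17 and -1.27 in lumbar and -1.33 and -2.37 in sacral libraries of males and females. Sacral Epha5 was 0.67 ± 0.35 in males and 1.35 ± 0.22 in females. None of these differences held after adjustment.

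Genes listed as partners in these pathways, among them other netrin and netrin-G genes, came from a list of 62, of which 59 were tested. Of these, 42 were called (71.2%, beside 45.6% of all genes), 31 higher in sacral and 11 higher in lumbar (beside 30.3% and 15.3% of all genes), with a median of -0.27. With the glial marker mean as a covariate 0 of the 59 were called (limma, 9 at an unadjusted p under 0.05), beside 0.926% of all genes. With the endothelial one 15 were called, 10 higher in sacral and 5 higher in lumbar, beside 16.5% of all genes. The split was 14 and 6 among Eph and ephrin partners and 6 and 2 among Slit and Robo partners. It was 11 and 3 among genes listed under netrins and their receptors. Toward sacral the largest differences were those of Ngef, the ephexin exchange factor that Eph receptors activate (-1.98 ± 0.37, adjusted p = 0.000238), Ptpro, a phosphatase that acts on Eph receptors (-1.06 ± 0.19, adjusted p = 0.000167), and Flrt3, a membrane ligand of Unc5 receptors (-0.90 ± 0.15, adjusted p = 8.1e-05). Ngef had a mean level of -2.08 ± 1.13 in lumbar and -0.13 ± 0.65 in sacral libraries (SD), and 9 of 9 donors with a value at both levels were higher in sacral. Its mean was above the filter at -1 in the sacral level alone, and the filter favours that direction in such a gene. Toward lumbar they were Ntng2, a membrane-anchored netrin-G (1.79 ± 0.27, adjusted p = 3e-05), Dock1, a Rac exchange factor (1.19 ± 0.16, adjusted p = 1.2e-05), and Nck2, an adaptor of Eph receptors (0.82 ± 0.18, adjusted p = 0.000841), each higher in lumbar in 10 of 10 donors. Ntng2 had means of -0.49 ± 0.47 in lumbar and -2.28 ± 0.70 in sacral libraries (SD). It was above the filter in the lumbar level alone, which favours that direction. Under TMM factors 37 of the 59 partners were called, 21 higher in sacral and 16 higher in lumbar, beside 42.8% of all genes. The split was 40 and 6 when recovered reads were scaled to their total, and it turned to 2 and 36 relative to the neuronal marker mean. These were 46 and 38 of the 59 partners, beside 66.8% and 70.6% of all genes called.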

How the data were processed

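RNA of 20 libraries was compared between lumbar and sacral ganglia and between sexes. The authors aligned reads to mm9 with Subread and assigned unique reads to Ensembl genes by featureCounts. The authors then used TMM of edgeR 3.12.1 and voom of limma 3.26.9, and deposited log2 RPKM values. The source of the equal library medians, and whether counting used the strand, are not given in the sources used here. The amplification and library kits do not mark strand, so Epha1, Epha6, Epha10, Ephb1, Ephb4, Efna3, Efna4 and Unc5a, which share exon bases with a gene on the opposite strand, are uncertain. Gene positions came from the NCBIM37 annotation, which matched 37205 of 37620 identifiers.

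Whole reads were recovered from the deposited values for 98.5% of genes with a value (within 0.01 read, including all 37 members). They give depth and the voom alternatives. Counting error is only a part of their spread between libraries, which also holds differences between donors.

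The log2 values were fitted in R 4.3.3 by limma 3.58.1 (statmod 1.5.0 for the donor term), with 4 group means, donor as a random block, a variance trend and Benjamini-Hochberg adjustment over all genes tested at 0.05. Genes needed a mean above -1 and 3 values in at least 1 group, which kept 16422, and 118 of these had no values in a group. Libraries of 1 donor come from the same animals, and their deviations correlated at 0.039 to 0.302 in the 10 pairs. Tables and plots used Python 3.11.15, pandas 2.3.3, numpy 2.4.6 and matplotlib 3.10.9.

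Every member is named. Full values are given for called members with an absolute log2 fold change of at least 0.5 and for the 5 highest in level, and of the partners for the 3 largest called differences in each direction. The members and lists were chosen with earlier results of these data known. The fit was tested on simulated data. Alternatives were other filters, pseudocounts of 1 and 0.1, other scalings, blocks, weights and thresholds, donors left out, 1 sex alone, marker means as covariates and voom. Voom scaled to total reads and neuronal scaling were chosen after seeing the data. 1 listed marker is not reported here.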

Additional observations from a re-analysis of the deposited data

Results flagged for a closer look

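In 9 of 74 groups of libraries, the lowest or highest library stood apart from the rest of its level by Dixon's criterion. Chance meets this in about 1 of 20 independent groups of normal values. The groups here share libraries and each holds both sexes, so that rate is a rough guide and no test. The values are log2 RPKM. Among tested members, lumbar Epha1 was -3.56 in female donor 5 (the others -1.57 to 0.36), lumbar Efna2 was 1.86 in female donor 4 (the others -2.72 to -0.77), and sacral Efna5 was 1.0 in male donor 2 (the others 1.67 to 2.43). Lumbar Robo1 was -2.34 in male donor 4 (the others -1.26 to -0.14), lumbar Robo4 was -1.13 in female donor 2 (the others 0.89 to 2.58), and sacral Neo1 was 2.15 in male donor 2 (the others 2.94 to 3.31). The lumbar library of female donor 2 also had the lowest endothelial marker mean of the lumbar libraries (0.34 against a mean of 2.07), and the part of these cells in its Robo4 value was not tested. Below the filter, sacral Epha6 was -5.45 in male donor 3 on 6 reads, lumbar Epha10 was -5.08 in male donor 5 on 8 reads, and sacral Efnb3 was -6.55 in female donor 2 on 2 reads.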

How the results depend on the processing

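The 12 called members kept their direction and an adjusted p of at most 0.05 without the filter, under both pseudocounts, quantile and TMM scaling, without the trend, with array weights, under either other block and in both voom fits. Without the replicate block 12 members were called (beside 40.3% of all genes), and with it as a fixed effect 13 (beside 44.3%). Leaving out each donor gave 12 to 15 members (ligands 6 to 8, receptors 6 to 8, partners 34 to 40). The 12 remained called each time, and 40.5% to 45.8% of all genes were called in these fits. A filter at 1 kept 7 of the 12 in the test and gave 3 ligands, beside 55.7% of all genes called. Array weights gave 10 receptors, beside 51.0% of all genes. Female donors alone gave 5 members, 2 ligands, 3 receptors and 21 partners, and male donors alone 25 partners, with fewer samples. Of all genes, 23.4% were called in female donors alone and 29.1% in male donors alone. The glial covariate gave 0 members, ligands, receptors and partners, beside 0.926% of all genes. The endothelial covariate gave 6 members, 2 ligands and 15 partners, beside 16.5% of all genes. Neuronal scaling gave 22 members and 13 receptors, with 70.6% of all genes called. At an adjusted p of 0.01, 11 members passed, and the share of all genes at that threshold is not given here.

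Signs turned as follows, and the cause was not tested. With the glial covariate the log2 fold change was -1.16 for Epha1, -0.84 for Epha2, -0.12 for Epha4, -0.81 for Ephb3, -0.02 for Ephb6, -0.33 for Efna2, 0.23 for Efna5, -0.20 for Slit3, -0.55 for Robo4, 0.58 for Unc5a and 0.24 for Unc5c. With the endothelial covariate it was -0.01 for Epha1, -0.09 for Epha2, -0.18 for Epha4, -0.08 for Robo4 and 0.29 for Unc5a. Neuronal scaling gave 0.34 for Efna1, 0.36 for Efna5, 0.55 for Efnb2, 0.60 for Unc5a, 0.22 for Unc5c and 0.43 for Neo1. Array weights gave -0.01 for Ephb6 and -0.05 for Robo1, and total-read scaling -0.28 and -0.27. Quantile scaling gave 0.08 for Efnb2 and -0.10 for Robo1. TMM factors gave 0.05 for Efnb2 and 0.11 for Unc5a, voom with TMM 0.06 and 0.11, male donors alone 0.05 for Efnb2, and female donors alone 0.01 for Unc5a. Leaving out a donor gave -0.03 to 0.10 for Ephb6, 0.00 to 0.21 for Robo1 and -0.10 to 0.17 for Unc5a.

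Depth limits Robo3, Efna4 and Dcc, which had no read in some libraries.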
